A study of Mus musculus with 2 samples.

Results

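The regions described here are promoters shared by a pair of protein-coding genes of the mouse that are transcribed away from each other. Pairs were taken from the GENCODE M21 annotation of mm10: genes on opposite strands of an autosome whose 5′ ends diverge and lie 1 to 1000 bp apart, the 5′ end being the outermost base of the gene. This rule gave 734 pairs, made of 1448 genes, or 6.96% of the 20807 coding genes of the autosomes. The median distance between the 5′ ends was 128 bp (quartiles 66.25 and 240 bp, range 1 to 987 bp), and 602 pairs (82.0%) lay within 300 bp. In 40 pairs a gene was shared with another pair, so the pairs fell into 714 separate loci. They were set against 14524 isolated genes, defined as coding genes with no other coding 5′ end within 10 kb. Pairs are named with the minus-strand gene first.

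The material was whole thymus of male B6CASTF1/J mice, the first-generation cross of C57BL/6J and CAST/EiJ, aged 2 months. It came from 1 group of 2 samples, called replicates 1 and 2 here as in their labels, with no treatment and no second group. The labels number the animals separately but give both the same donor identifier, so the spread between replicates may be partly technical. With 1 group, no test between conditions was possible, and shares carry 95% Wilson intervals that cover counting error over regions only.

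Many vertebrate promoters lie in CpG islands, and a promoter of this kind can start transcription in both directions. In a bidirectional promoter of a coding pair, each direction produces the messenger RNA of a different gene, and such pairs are known for holding many genes of DNA repair, mitochondria and other functions needed in every cell. DNase-seq reports where DNA in nuclei is open to cutting by DNase I, so an active promoter appears as a peak of cuts, and a bound factor can appear inside it as a footprint, a short stretch that is cut less than its surroundings.

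The deposited peak lists held 63832 strict peaks in replicate 1 and 67929 in replicate 2, the strict list being the shorter of the pair deposited for each sample. Each peak carries the authors' own score, whose scale is not stated. All 12 thymocyte markers (among them Cd3e, Cd4, Cd8a, Lck and Rag1) had a strict peak at the promoter in both replicates, against 0 of 6 hepatocyte, 1 of 6 B cell, 1 of 6 macrophage, 1 of 6 fibroblast, 2 of 6 endothelial and 2 of 6 thymic epithelial markers. Of 6 muscle markers 1 was open, Ckm, which is itself in a pair, as is Cd8b1 of the thymocyte markers. Over all coding genes of the autosomes the share was 53.6%. The median score of the open markers (mean over replicates) was 6.27 for thymocytes, 7.89 for thymic epithelium and 8.07 for Ckm. It was 4.98 for B cells, 1.78 for endothelium and 1.25 for both macrophages and fibroblasts. In a bulk tissue, fewer cells with an open promoter and a less open promoter in each cell cannot be told apart.

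The DNA between the 5′ ends is the shortest piece that both genes share. Intervals were chosen for a motif match in a footprint of both replicates, for the highest repair pair and a pair with no strict peak. They are read from mm10 on the plus strand, so the minus-strand gene begins just left of the first base and the plus-strand gene just right of the last. Capitals mark bases covered by a footprint in both replicates. No annotated exon overlaps these intervals. The intervals are chr4:155086383-155086576 for Rer1/Morn1, chr17:48409907-48410013 for Nfya/Oard1, chr3:152210303-152210421 for Dnajb4/Fubp1, chr7:122132986-122133040 for Palb2/Dctn5 and chr1:82586850-82586920 for Col4a4/Col4a3.
Rer1/Morn1: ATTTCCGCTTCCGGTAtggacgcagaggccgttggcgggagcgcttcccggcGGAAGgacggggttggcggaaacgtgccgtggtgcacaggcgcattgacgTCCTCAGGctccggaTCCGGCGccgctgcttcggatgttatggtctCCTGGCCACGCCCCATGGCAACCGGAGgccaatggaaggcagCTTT
Nfya/Oard1: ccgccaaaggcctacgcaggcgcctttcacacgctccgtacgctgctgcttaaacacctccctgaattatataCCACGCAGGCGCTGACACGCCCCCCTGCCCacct
Dnajb4/Fubp1: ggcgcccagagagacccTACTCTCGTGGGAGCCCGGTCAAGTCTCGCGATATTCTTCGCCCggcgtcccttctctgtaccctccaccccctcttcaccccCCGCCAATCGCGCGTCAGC
Palb2/Dctn5: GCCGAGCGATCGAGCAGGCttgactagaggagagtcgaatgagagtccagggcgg
Col4a4/Col4a3: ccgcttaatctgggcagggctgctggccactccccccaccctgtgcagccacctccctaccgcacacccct
In the Rer1/Morn1 interval an ETS motif (CCGGAAG, here on the minus strand) starts at base 8 and lies in the first run of capitals. Its NFY match lies in lower case, outside the shared footprints. Nfya/Oard1 has 2 NRF1 matches, of which 1 starts at base 77 and overlaps the run of capitals and the other lies in lower case, and Dnajb4/Fubp1 an NFY match (CCAAT) that starts at base 104, inside its last run of capitals. Palb2/Dctn5, the highest-scoring pair of the DNA replication and repair list, holds none of the 13 motifs searched, yet 19 of its 55 bases are in shared footprints. The Col4a4/Col4a3 interval holds none of the motifs and no shared footprint. This last interval was chosen among the pairs without a strict peak after their values were seen. In the looser peak lists its pair did have a peak, scoring 0.193 in replicate 1 and 0.237 in replicate 2. No interval of up to 300 bp qualified for the YY1 motif or for the T cell list.

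A pair was called open when a strict peak of each replicate overlapped, by at least 1 bp, the window from 500 bp beyond 1 5′ end to 500 bp beyond the other. In both replicates 695 of 734 pairs were open, or 94.7% (92.8 to 96.1%), where 53.6% of all coding genes and 48.7% of isolated genes (7076 of 14524, 47.9 to 49.5%) were open in windows of 1129 bp, the median window of the pairs. The share of pairs was 94.8% in replicate 1 and 94.96% in replicate 2, and the share of isolated genes was 49.95% and 50.4%. A strict peak in 1 replicate only was found in 3 pairs, and 36 pairs had none. The gap between pairs and isolated genes was far larger than the difference between replicates. A pair window holds 2 5′ ends, and a peak near either makes the pair open, while an isolated window holds 1. How much of the gap comes from this was not tested. Among isolated genes, the 720 with a divergent noncoding 5′ end within 1000 bp were open in 76.7% (73.4 to 79.6%). This lay between the pairs and the 13804 others, which were open in 47.3%. The 720 genes were also richer in CpG, with a median of 40 in the central 500 bp, as in the pairs, against 17 in the others. The cause of their higher share was not tested.

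Pairs were richer in CpG than isolated genes, with a median of 40 against 19 CpG in the central 500 bp, and a GC content of 62.5% against 55.2%. The comparison was therefore repeated within bins of CpG density, and pairs were open more often in each of the 5 bins. Under 2 CpG per 100 bp, 46.2% of 26 pairs were open (28.8 to 64.5%), against 7.58% of 5302 isolated genes. From 2 to under 4, the shares were 74.4% of 43 pairs and 38.1% of isolated genes. From 4 to under 6 they were 97.2% and 71.9%, and from 6 to under 8 they were 95.1% and 83.9%. At 8 or more, 371 of 373 pairs were open (99.5%), against 86.5% of isolated genes. With the isolated genes weighted to the CpG bins of the pairs, 78.1% of them were open, so the difference fell from 46.0 to 16.6 percentage points. The central 500 bp lies around the midpoint of a pair, so it holds neither 5′ end where these are more than 500 bp apart. In the 2 poorest bins the median window of pairs was 1550 and 1456 bp, against 1129 bp for isolated genes. The effect of both on the comparison was not tested.

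**Figure D1:**
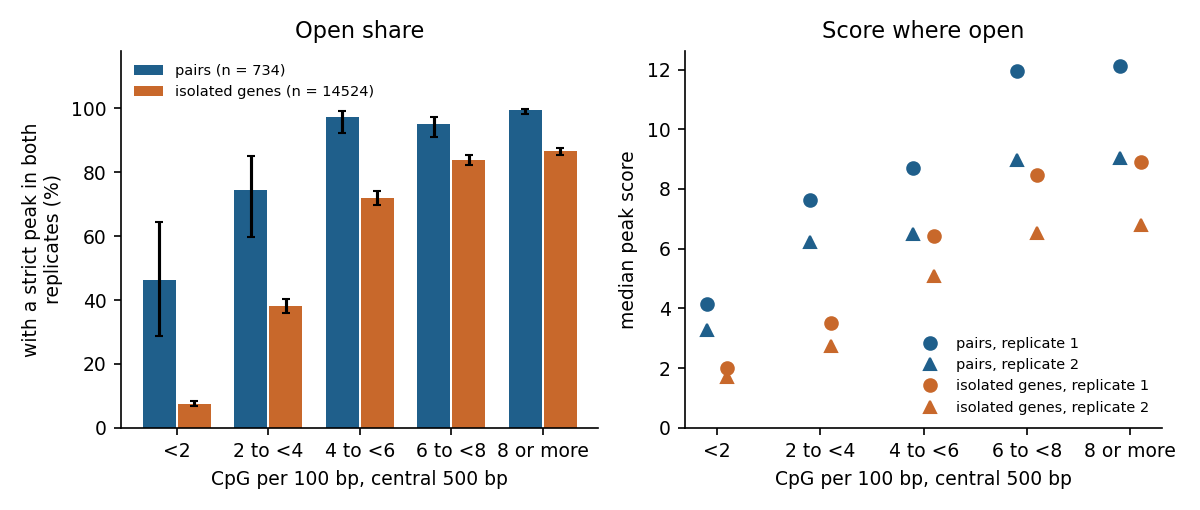
Left, share of pairs and isolated genes with a strict peak in both replicates (%, bars with 95% Wilson intervals) by CpG per 100 bp of the central 500 bp. Right, the median peak score of those that were open, by replicate. The pairs are the higher set in all 5 bins, from 46.2% against 7.58% in the poorest to 99.5% against 86.5% in the richest.

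Open pairs also had higher peaks, though the highest peak of a pair is taken over 2 5′ ends and that of an isolated gene over 1. Taking the highest peak of each window, open pairs scored a median of 11.3 in replicate 1 and 8.49 in replicate 2, against 7.09 and 5.45 in open isolated genes and 8.0 and 6.05 in all open coding genes. The ratio of pairs to isolated genes (medians of the mean over replicates, 9.86 and 6.30) was 1.565, and it stayed at 1.43 with isolated genes weighted by CpG bin. The sets overlapped: 27.0% of open isolated genes in replicate 1 and 27.8% in replicate 2 lay above the pairs' median, and 20% of open pairs lay under the isolated median in each replicate. The scores of pairs were less spread around their mean, with a coefficient of variation of 46.3% against 72.5% among open isolated genes.

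The highest-scoring pair was Hjurp/Trpm8, whose 5′ ends are 28 bp apart on chromosome 1, with a score of 44.8 in replicate 1 and 36.5 in replicate 2. Hjurp is the chaperone that loads the centromeric histone CENP-A, and Trpm8 is the cold-sensing ion channel of sensory neurons. The next was Dnajb4/Fubp1 (28.8 and 20.8), which joins a co-chaperone to a DNA-binding regulator of Myc. Rita1/Ddx54, a regulator of Notch signalling beside an RNA helicase, had 27.7 and 19.8. Tecr/Dnajb1, a fatty acid elongation enzyme beside an Hsp40 chaperone, had 28.1 and 19.2. Cdc27/Myl4 had 29.2 and 16.9. It couples a subunit of the anaphase-promoting complex to the atrial myosin light chain. Dcaf6/Mpc2, with the mitochondrial pyruvate carrier, had 25.6 and 19.2, and Nfya/Oard1, with a subunit of the factor NF-Y, had 25.96 and 18.1. Also among the 10 highest were Rnft2/2410131K14Rik and Fam53a/Gm9903, each of which includes a gene known only by a clone or predicted-gene symbol. In Hjurp/Trpm8 and Cdc27/Myl4 a gene of general cell division thus shares an open promoter with a gene known from other tissues.

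Replicate 2 scored lower than replicate 1 in 680 of the 695 open pairs, with a median log2 ratio of -0.42 and an SD of 0.22 over pairs. The median in isolated genes open in both replicates was -0.36, so the shift was not limited to pairs. After the median was removed, 0 pairs differed more than 2-fold between replicates. The pairs that differed most toward replicate 1 were Bola1/Hist2h2ab (8.62 and 3.34), Zfp944/Zfp758 (2.70 and 1.10) and Tepsin/Ndufaf8 (29.3 and 13.0). Those that differed most toward replicate 2 were Sgsh/Slc26a11 (3.27 and 4.28), Ccdc146/Fam185a (6.07 and 7.48) and Wrap53/Trp53 (7.88 and 8.76). Across open pairs, the log2 scores of the replicates had a Pearson correlation of 0.967, given as a description over 695 pairs that share both libraries.

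**Figure D2:**
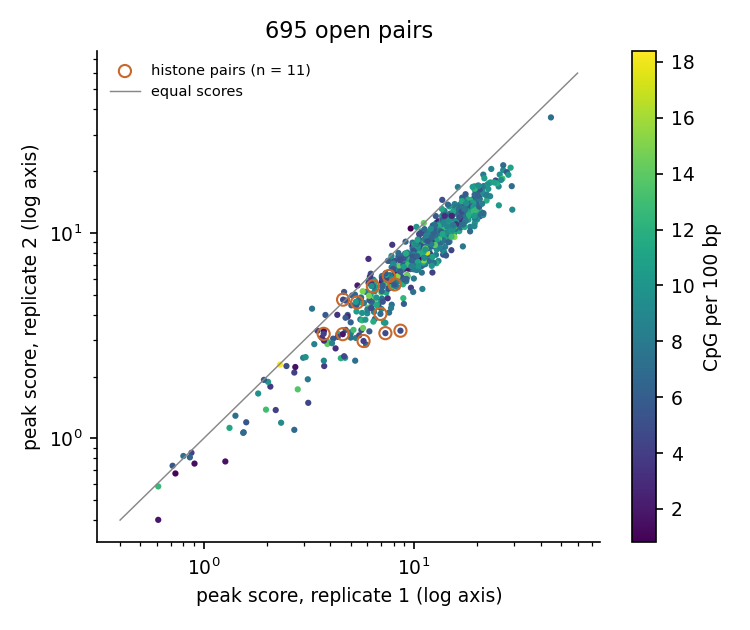
Score of the highest strict peak of each of the 695 open pairs in replicate 1 and replicate 2, on log axes, coloured by CpG per 100 bp. Points lie mostly under the line of equal scores, 680 of 695 being higher in replicate 1, and the 11 open histone pairs (circled) lie in the lower part of the cloud.

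Pairs were mostly open at every distance between the 5′ ends, while the layout of the peaks differed with it. The open share was 99.2% at 1 to 50 bp, between 93.5% and 96.9% in the bins from 51 to 500 bp, and 88.2% (78.5 to 93.9%) of the 68 pairs over 500 to 1000 bp apart. The median score was 9.23, 9.67, 10.5, 10.8, 10.2 and 9.21 in the 6 bins of rising distance. CpG per 500 bp was 43 at 1 to 50 bp and 19 over 500 to 1000 bp, where the central 500 bp holds neither 5′ end.

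A single strict peak covered both 5′ ends in each replicate in 378 of 695 open pairs (54.4%). Of the 294 open pairs up to 100 bp apart it did so in 258 (87.8%), while the shares were 49.7% over 100 to 200 bp, 22.8% at 201 to 300 bp, 9.68% at 301 to 500 bp and 0% of 60 pairs further apart. Since the highest peak of a pair was a median of 260 bp wide in replicate 1 and 240 bp in replicate 2, a peak over both ends is limited by its width as the distance grows. With the peaks of both replicates joined where they overlap, the window held 1 region in 372 open pairs (53.5%), 2 in 250 and 3 or more in 73. Counting ends within 100 bp of a peak in both replicates, both ends were reached in 592 pairs (85.2%), the minus-strand end only in 52, the plus-strand end only in 37 and neither in 14. The highest peak lay on the plus-strand side of the midpoint in 331 pairs and on the minus-strand side in 360.

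**Figure D3:**
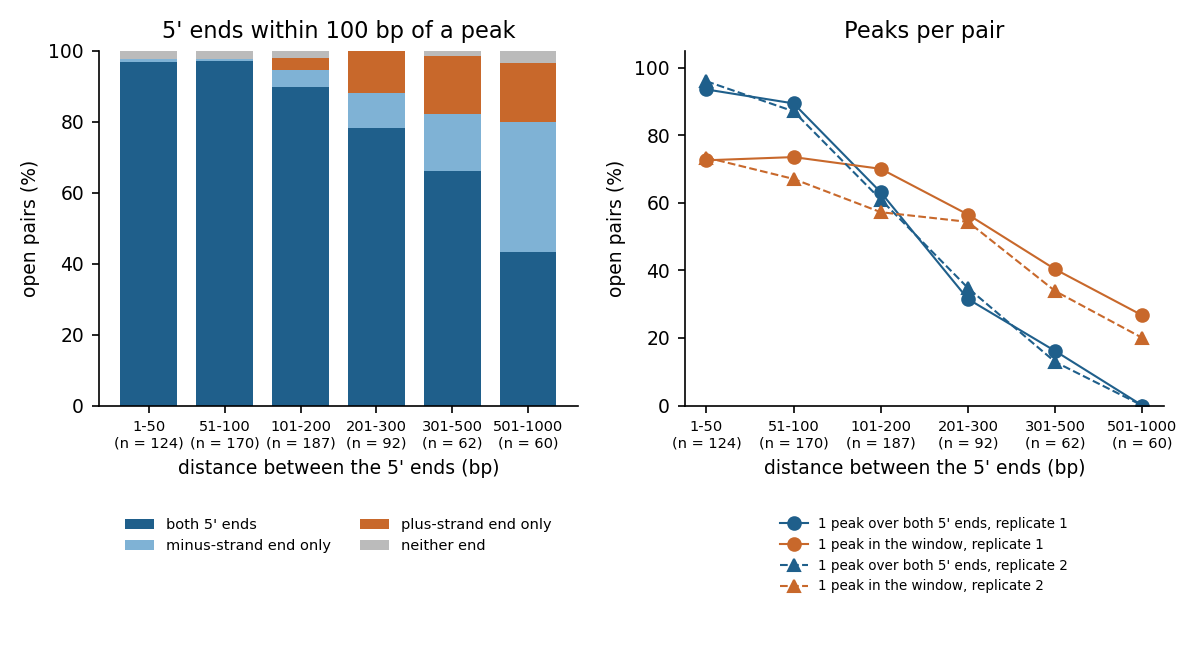
Open pairs by distance between the 5′ ends (bp). Left, share (%) with a peak of both replicates within 100 bp of both ends, of 1 end or of neither. Right, share (%) with 1 peak over both ends and with 1 peak in the window, by replicate. Both ends are reached in 96.8% of pairs at 1 to 50 bp and in 43.3% over 500 to 1000 bp.

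The 60 open pairs more than 500 bp apart show both arrangements. A peak lay near both ends in 26, near 1 end in 32 and near neither in 2, and the midpoint was covered in 10. Smyd1/Cd8b1, 555 bp apart, joins a muscle histone methyltransferase to the beta chain of the Cd8 co-receptor of thymocytes. Its highest peak scored 9.36 in replicate 1 and 7.16 in replicate 2 and was centred 265 bp from the midpoint on the Cd8b1 side, and a second region lay within 100 bp of the Smyd1 end. Klc3/Ckm, 672 bp apart, joins a kinesin light chain to muscle creatine kinase. Its 1 peak scored 9.15 and 6.995 and lay near the Klc3 end only, 289.5 bp from the midpoint, so that the peak counted for the muscle marker Ckm was the one beside Klc3. The highest peak lay furthest from the midpoint in Hist1h2bh/Hist1h3f (818.5 bp toward Hist1h3f), P3h4/Fkbp10 (776 bp toward P3h4) and Gm45785/Ric8a (751.5 bp toward Ric8a).

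Seen from each 5′ end, the open stretch of pairs reached further upstream, toward the partner, and less far into the gene. Averaged over 300 to 100 bp upstream, 46.6% of open pair ends were inside a strict peak in replicate 1 and 43.5% in replicate 2, against 31.3% and 30.6% of open isolated genes. At 100 to 300 bp downstream the order was the other way, with 17.98% and 16.7% for pairs and 30.6% and 26.9% for isolated genes. It was the same at 300 to 500 bp downstream, with 10.6% and 14.1% against 24.0% and 26.5%. In the last 100 bp before the 5′ end, 32.8% of pair ends and 24.8% of isolated genes were inside a footprint of both replicates. The differences in peak cover had the same sign in both replicates, and each was larger than the difference between replicates.

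**Figure D4:**
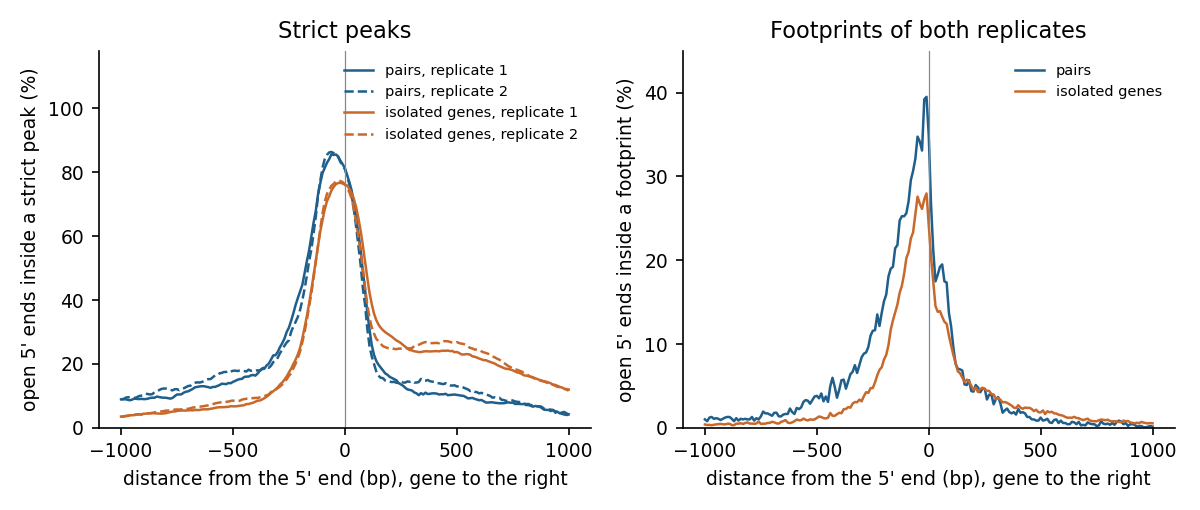
Share of the 5′ ends of open pairs and open isolated genes (%) that lie in a strict peak (left, by replicate) and in a footprint of both replicates (right), by distance from the 5′ end in bp, with the gene to the right. In both panels pairs are higher upstream. In peaks they are lower in both replicates from 50 bp downstream of the end. Isolated genes average 30.6% in replicate 1 over 100 to 300 bp downstream.

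Base composition differed between the sides of the midpoint. Over the central 500 bp, GC skew (the excess of G over C as a share of both) averaged -6.40% left of the midpoint and 6.91% right of it, and it was higher on the right in 554 of 734 pairs (75.5%). In the central 500 bp of isolated genes, read along the gene, it was -0.0995% in the upstream part and 3.58% in the downstream part, with a higher downstream value in 57.6%. The excess of T over A was -4.86% on the left and 4.16% on the right of pairs, against -2.16% and 1.33% at isolated genes.

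Open pairs held a median of 11 footprints in replicate 1 and 10 in replicate 2, against 8 and 8 in open isolated genes. A shared footprint, a stretch covered by a footprint of each replicate, was found a median of 8 times per open pair and 6 times per open isolated gene. Per kb of window there were 6.81 and 5.15, a ratio of 1.32, which was 1.26 with isolated genes weighted by CpG bin. Shared footprints were counted at 1.63 per 100 bp between the ends, against 0.497 in the flanks. Between the ends the value fell with distance, from 3.71 per 100 bp at 1 to 50 bp to 0.770 over 500 to 1000 bp. A footprint lying across an end was counted as between the ends and not in the flank. This raises the value between the ends, most in the shortest intervals, and the size of the effect was not measured. The pairs with the most shared footprints were Fiz1/Gm44973 and Rnf5/Agpat1 with 24 each, B3galt6/Sdf4 and Cdca2/Kctd9 with 21 each, and Srgap2/Fam72a with 20. Rnf5 is a ubiquitin ligase of the endoplasmic reticulum, Agpat1 an enzyme of phospholipid synthesis, and Cdca2 a regulator of mitotic chromosomes. Their peaks were not the highest: Srgap2/Fam72a scored 13.3 and 10.9, and Rnf5/Agpat1 16.8 and 12.7.

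The sequences of pairs were searched for 13 motifs in the central 500 bp, on both strands and with no mismatch. The ETS motif CCGGAAG, bound by ETS-family factors, was in 34.1% of pairs (30.7 to 37.6%), 11.7% of isolated genes and 14.2% of all coding genes. The NRF1 motif GCGCNTGCG, of a factor known for mitochondrial and other housekeeping genes, was in 26.6% of pairs, 8.43% of isolated genes and 10.0% of all coding genes. The YY1 motif AANATGGCG was in 10.6%, 3.66% and 4.52%. Weighted by CpG bin, the shares of isolated genes were 18.4% for ETS, 15.6% for NRF1 and 6.30% for YY1, all under the lower limits of the pairs' intervals (30.7, 23.5 and 8.60%). CCAAT, the NFY motif, was in 52.5% of pairs and 49.2% of isolated genes, and in 44.1% of the latter after weighting. At least 1 of these 4 motifs was in 594 pairs (80.9%), and at least 2 were in 265 (36.1%).

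The other 9 motifs went in both directions. The SP/KLF motif GGGGCGGGG was in 25.2% of pairs and 17.2% of isolated genes, but the order turned after weighting by CpG, to 30.9% in isolated genes. ZBTB33 (TCTCGCGAG) was in 3.41% of pairs and 0.840% of isolated genes, or 1.61% after weighting, and ZNF143 (ACTACAA) in 6.95% and 5.44%, or 4.13% after weighting. Both weighted values lie under the lower limits of the pairs' intervals (2.32 and 5.32%). CRE (TGACGTCA) was in 4.91% and 2.53%, or 3.89% after weighting, and the E-box CACGTG in 14.7% and 9.99%, or 13.8% after weighting, both within the pairs' intervals. The TATA motif TATAAA was in 6.68% of pairs and 19.1% of isolated genes, or 9.36% after weighting. RUNX (TGTGGTT) was in 3.95% of pairs and 7.92% of isolated genes, or 4.91% after weighting, which is within the pairs' interval (2.77 to 5.62%). The E protein motif CAGCTG was in 20.2% and 25.5%, or 23.97% after weighting. The TCF/LEF motif ATCAAAG was in 4.50% and 5.47%, and the order turned after weighting, to 3.10% in isolated genes.

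In open pairs, 35 of 36 CRE matches (97.2%), 38 of 44 ZBTB33 matches (86.4%), 214 of 260 SP/KLF matches (82.3%) and 230 of 283 NRF1 matches (81.3%) overlapped a shared footprint. For ETS it was 187 of 327 (57.2%), for NFY 229 of 710 (32.3%), for the E protein motif 20 of 161 (12.4%) and for RUNX 2 of 28 (7.14%). In open isolated genes the shares were 88.0% for CRE, 85.8% for ZBTB33, 72.7% for SP/KLF and 79.6% for NRF1. They were 46.8% for ETS, 23.8% for NFY, 10.5% for the E protein motif and 12.8% for RUNX. Those of ZBTB33, NRF1 and the E protein motif lay within 2 points of the pairs. ZBTB33 and NRF1 matches are not all separate sites, since 1 site can match on each strand 1 base apart. In open pairs, the 44 ZBTB33 matches lay in 22 pairs and the 283 NRF1 matches in 192. Shared footprints covered 18.7% of the bases searched in open pairs and 13.0% in open isolated genes. RUNX and E protein matches lay under that level in both sets, RUNX in isolated genes by a small margin (12.8% against 13.0%). TCF/LEF matches lay above it in both, at 13 of 32 (40.6%) in open pairs and 17.3% in open isolated genes. TATA matches lay above it in open pairs, at 11 of 51 (21.6%), and under it in open isolated genes (9.26%). YY1, ZNF143 and E-box matches lay above it in both sets. However, a match is counted from 1 overlapping base, and the share of bases is not the same measure. The scores of pairs also differed by motif. Over the 34 open pairs with a CRE the median was 14.6 in replicate 1 and 10.4 in replicate 2, against 11.1 and 8.33 in the 661 without. The 45 open pairs with TATAAA had 8.62 and 6.79, against 11.4 and 8.61 in the rest. These medians were not tested, and the pairs differ in CpG as well.

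**Figure D5:**
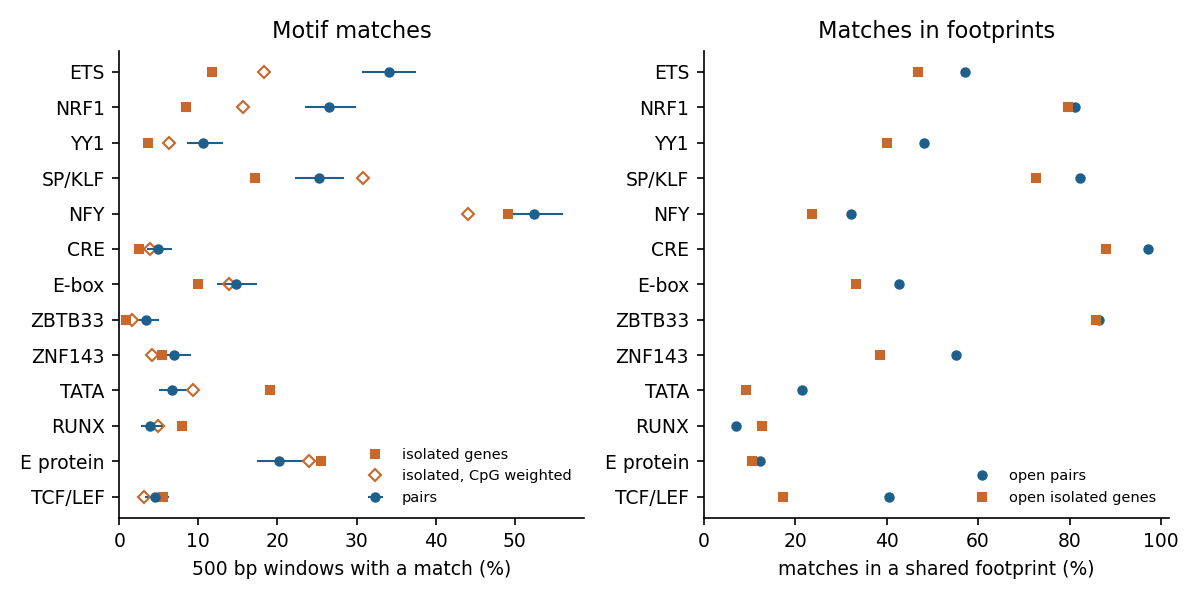
Left, share of 500 bp windows with a match to each of 13 motifs (%) in pairs (with 95% Wilson intervals), isolated genes and isolated genes weighted by CpG bin. Right, share of matches in open pairs and open isolated genes that overlap a footprint of both replicates (%). ETS and NRF1 have the widest gaps on the left, 34.1% against 11.7% and 26.6% against 8.43%.

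Pairs took up an uneven share of gene groups, a matter of the annotation alone. Against 6.96% of all coding genes, pairs held 27 of 67 histone genes (40.3%), 38 of 129 genes of DNA replication and repair (29.5%), 24 of 100 of RNA polymerases and general factors (24.0%), 18 of 78 of the mitochondrial ribosome (23.1%) and 23 of 104 of the respiratory chain and its assembly (22.1%). They held 11 of 59 splicing genes, 13 of 83 chaperone genes and 7 of 49 proteasome genes. At the other end were 20 of 385 Zfp genes (5.20%), 2 of 41 genes of other organs, 2 of 42 collagens and 1 of 55 genes of T cells and antigen presentation (1.82%).

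DNA repair and replication pairs were open in 38 of 39 cases, beside 94.7% of all pairs, with scores from 3.47 to 21.3 in replicate 1 (median 12.8) and from 2.51 to 16.8 in replicate 2 (median 8.80). Of the isolated genes of that list, 59 of 63 were open. Palb2/Dctn5, the partner of Brca2 beside a dynactin subunit, scored 21.3 and 16.8. Lig4/Abhd13, with the ligase of end joining, scored 19.9 and 15.9. Mcm4/Prkdc joins a subunit of the replicative helicase to the catalytic subunit of DNA-dependent protein kinase, which V(D)J recombination requires, and it scored 20.4 and 14.6 over 3 regions. Xpc/Lsm3, a sensor of helix-distorting damage beside a U6 snRNA-binding protein, scored 19.3 and 13.2. Atm/Npat, the double-strand break kinase beside a coactivator of histone genes, scored 19.6 and 12.6 under 1 peak over both ends 307 bp apart. Brca1/Nbr1 scored 11.3 and 8.51. Wrap53/Trp53 scored 7.88 and 8.76, which is under the median of open pairs in replicate 1 and above it in replicate 2.

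All 18 pairs with a gene of the mitochondrial ribosome and all 23 of the respiratory chain list were open, with median scores of 10.1 and 10.5 (mean over replicates), beside 9.86 over all open pairs. Their highest were Klc4/Mrpl2 (21.1 and 13.9) and Tepsin/Ndufaf8 (29.3 and 13.0). All 24 pairs of RNA polymerases and general factors were open at a median of 10.2, led by Gtf3c1/D430042O09Rik (22.4 and 17.2), which holds a subunit of TFIIIC. All 11 splicing pairs were open at a median of 13.2. Med22/Rpl7a, a Mediator subunit beside a ribosomal protein, scored 17.8 and 14.7, but 7 of 8 cytosolic ribosome pairs were open at a median of 6.96. All 7 proteasome pairs were open at a median of 6.70. The isolated genes of these lists were mostly open too: 31 of 32 of the mitochondrial ribosome (median score 6.12), 35 of 41 of the respiratory chain (9.17), 47 of 50 of RNA polymerases and general factors (8.08), 29 of 34 of splicing (10.8), 30 of 30 of the cytosolic ribosome (9.96) and 22 of 27 of the proteasome (9.59). In the cytosolic ribosome and the proteasome, the isolated genes thus had the higher median, the reverse of the order over all genes. The medians of these pairs rest on 7 open pairs each. The aminoacyl-tRNA synthetases had the same order by a small margin, with 9.11 in 5 open pairs and 9.56 in 18 open isolated genes.

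Histone pairs, mostly an H2A and an H2B gene of the chromosome 13 cluster, stood lower. Of 14, 11 were open, and these scored from 3.72 to 8.62 in replicate 1 and from 2.98 to 6.17 in replicate 2. Hist2h2ac/Hist2h2be scored 7.59 and 6.17, and Hist1h2bf/Hist1h2ad 8.08 and 5.62. These genes are near copies of each other: a median of 45.9% of the 31-base words of their windows occurred once in the genome, against 100% in the median pair. The 2 histone pairs with 0% of such words, Hist1h2bq/Hist1h2ao and Hist1h2ap/Hist1h2br, had no strict peak. Among the 5 with at least 50% unique words, 4 were open at a median of 4.94. The third closed one was Hist1h2ba/Hist1h2aa, known as histones of the testis, with 83.1% unique words.

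Some textbook divergent pairs did not meet the rule, since their annotated 5′ ends overlap. Psmb9/Tap1, the immunoproteasome subunit and peptide transporter of class I presentation, overlap by 211 bp and scored 22.6 in replicate 1 and 15.2 in replicate 2. Hspd1/Hspe1 (overlap of 111 bp), the mitochondrial chaperonins, scored 20.1 and 12.4, and Surf1/Surf2 (163 bp) 3.62 and 2.44. Col4a1/Col4a2, the basement membrane collagens, overlap by 21 bp and had no strict peak in either replicate. Gart/Son, 554 bp apart, is a member and scored 12.1 and 8.82, with its highest peak 546.5 bp from the midpoint toward Son.

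The 39 pairs not open in both replicates were poorer in CpG, with a median of 3.0 per 100 bp against 8.0 in open pairs, and none held a shared footprint. In 16 of them, another annotated coding start of a member, outside the window, had a strict peak in both replicates. Slc27a5/Trim28, Rnf151/Rps2, Ccnt1/4930415O20Rik and Grik5/Zfp574 are of this kind, so that the outermost 5′ end, which the rule uses, was not the open start of Trim28, Rps2, Ccnt1 or Zfp574. Their median CpG was 1.3 per 100 bp. A further 3 were windows with under 50% unique words: both histone pairs named above and Gml/Gml2. The other 20 had no open coding start of either gene and a median of 4.2 CpG per 100 bp.

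A few of those 20 are described by what their genes are known for, and the rest were not classified. Smc1b/Ribc2 holds the meiotic cohesin subunit, Patl2/Terb2 a meiotic telomere protein, and Aspa/Spata22 a meiotic recombination protein beside the aspartoacylase of the brain. Col4a4/Col4a3 encode collagens of the kidney basement membrane, and their nearest strict peak was 54860 bp away in both replicates. Kirrel2/Nphs1 holds nephrin of the kidney filter, Bhmt2/Dmgdh encode enzymes of methyl group metabolism, and Peg3/Usp29 are imprinted genes. Among these 20, 10 had at least 4 CpG per 100 bp. The highest density was in Ppp1r3d/Fam217b, at 12.8 per 100 bp, with the nearest strict peak 83617 bp away in replicate 1. These names were picked after the values were seen, except Aspa/Spata22, Bhmt2/Dmgdh, Col4a4/Col4a3 and Kirrel2/Nphs1. The 3 pairs with a peak in 1 replicate were Tssk3/Fam229a (0.889 in replicate 1), Pinlyp/Xrcc1 (0.620 in replicate 2) and Sox6/1110004F10Rik (0.407 in replicate 2), all close to the lowest scores of open pairs, 0.607 in replicate 1 and 0.401 in replicate 2.

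At the limits of the rule, Btf3l4/Txndc12 (987 bp apart) was the last pair inside, with scores of 7.60 and 5.49, and Gpr108/Trip10 (1009 bp) was the first outside, with 15.6 and 12.4. At the lower limit, Bag4/Lsm1 (1 bp) was inside with 16.6 and 12.9, and Nsa2/Gfm2 (0 bp) outside with 8.50 and 5.66. Of pairs over 1000 to 2000 bp apart, 82 of 104 were open (78.8%), and of pairs that overlap by up to 200 bp, 117 of 127 (92.1%). Their median windows were 2538 and 880 bp, against 1129 bp for the pairs inside the rule, so these shares are of unlike lengths.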

How the data were processed

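DNase-seq of thymus was analysed from files that the authors made per sample on mm10, per the file headers and labels. For the aligner, the peak and footprint callers and the read depth, the labels and headers name nothing. The deposited peak score is a signal of unstated scale, and within each sample it is a whole multiple of 1 step (0.00741 in replicate 1, 0.00608 in replicate 2, within 0.05 step for 100% of scores under 5), so the median open pair was 1526 and 1397 steps. The deposited footprints (291716 and 295617) hold 0.01 in every row, so only their positions were used. Bases were counted where the deposited false discovery rate of cutting (a q-value, listed up to 0.05) was 0.001 or lower. A median of 1047 and 1029 bases passed in open pairs, against 843 and 796 in open isolated genes.

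From these, overlapping peaks were joined within a sample, and the highest score in each window was taken. Windows of isolated genes ran 500 bp into the gene and 628 bp upstream. GENCODE M21 gave the 5′ ends and the genome sequence gave CpG, motif matches and the share of 31-base words that occur once. Shares have 95% Wilson intervals from scipy 1.17.1 (pandas 2.3.3, pysam 0.24.0). No p-value was computed, because there is 1 group of 2 samples and regions are not replicates. The counting of pairs and motifs was tested on simulated data. Motifs were counted on both strands, and a motif equal to its own reverse complement was counted once per site. Overlapping matches of other motifs were counted separately, so 1 site that reads nearly alike on both strands can give 2 ZBTB33 or NRF1 matches. Matches of different motifs were allowed to overlap. The pairs named were the 10 highest, up to 4 highest of each of 14 function lists, those with the most footprints, the closed ones first in the alphabet, those with a peak in 1 replicate, the largest offsets and replicate differences, textbook pairs, and pairs at the limits of the rule. Some pairs that this rule names are not reported here. The members, lists and motifs were chosen with earlier results of these data known, so that they are a description and support nothing independently. Alternatives covered the peak list, overlap, flank, 5′ end, isolation distance, CpG weighting, score, footprint overlap and leaving out each replicate.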

Additional observations from a re-analysis of the deposited data

How the results depend on the processing

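Pairs were open more often, scored higher and held more shared footprints per kb than isolated genes under each alternative run, which gave gaps of 16.59 to 48.54 percentage points, score ratios of 1.426 to 1.719 and footprint ratios of 1.187 to 1.361. The values, in the order pairs open, isolated genes open, gap in points and score ratio, were 95.1%, 52.55%, 42.54 and 1.719 with the looser peak lists, 94.01%, 45.46%, 48.54 and 1.456 with the 50000 highest peaks, 94.28%, 46.47%, 47.81 and 1.533 with flanks of 250 bp, and 95.23%, 50.56%, 44.67 and 1.578 with flanks of 1000 bp. For isolated genes, gap and ratio they were 47.76%, 46.92 and 1.541 with most of a peak in the window, 50.09%, 44.5 and 1.553 with the start of the longest coding transcript, 48.31%, 46.38 and 1.542 with isolation of 5 kb, 50.36%, 44.32 and 1.614 with 20 kb, and 78.1%, 16.59 and 1.426 with weighting by CpG bin. After the data were seen, leaving out isolated genes with a divergent noncoding start gave 47.26%, 47.42 and 1.607, and giving each pair gene a 1-gene window left 94.27% open and a gap of 45.55. That window still holds the partner's 5′ end where it lies within 628 bp, so it does not separate the 2 ends. Summed peak scores gave a ratio of 1.551, and scores divided by the median peak a pair median of 6.647. Shared footprints per open pair had a median of 7 with flanks of 250 bp and 6 with the stricter overlap of footprints. The footprint ratio was 1.292 with flanks of 1000 bp, 1.187 without the upstream extension, 1.262 with CpG weighting and 1.361 with the stricter overlap. Joining peaks within 50 bp gave 1 region in 58.56% of open pairs. Leaving out each replicate gave 94.82 to 94.96% of pairs and 49.95 to 50.42% of isolated genes open, gaps of 44.54 to 44.87, score ratios of 1.626 to 1.642, medians of 10 to 11 footprints, footprint ratios of 1.253 to 1.274 and 1 region in 56.96 to 63.22%. Of the motif differences, SP/KLF reversed to -2.162 points among open promoters and -5.654 with CpG weighting, and TCF/LEF to 1.213 and 1.393; the cause was not tested.

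With 2 samples of 1 group, the spread between replicates is known only from 2 values, and reads per sample are unknown, so a pair without a strict peak is below the authors' threshold and not shown to be closed. No paired analysis was possible because there is 1 group.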
